A study of Spongilla lacustris with 18 samples.

Results

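The change of the tryptamine effect between a 4 h exposure and the recovery after it was measured in juvenile freshwater sponges, Spongilla lacustris, by polyA RNA sequencing of whole bodies. Of the 18 libraries of the series, 12 entered the comparison, 3 from each of 4 groups, chosen by the group named in their titles and not by a measured value. Tryptamine recovery libraries came from sponges given 37.5 µM tryptamine for 4 h, washed, and left for 24 h. DMSO recovery libraries came from sponges given 0.03% DMSO, the vehicle, on the same schedule. Tryptamine 4 h and DMSO 4 h libraries were taken after 4 h in the same amounts of each agent, with no washout. All were wild type and had been grown for 9 days at 18 °C in M-medium. The other 6 libraries, tryptamine and DMSO at 1 h, entered the estimate of spread and supply values that the comparison did not use. Recovery sponges were sampled later than 4 h sponges, so removal of the amine and elapsed time cannot be told apart. The labels number the replicates but do not say that they were separate cultures or clones, so the p-values measure only the spread between these samples, which may be technical.

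Tryptamine is a trace amine made from tryptophan. In animals with neurons, monoamines act through G protein-coupled receptors and ion channels. Sponges have neither neurons nor muscle: they draw water with flagellated choanocytes, contract through sheets of pinacocytes, and renew their tissues from motile stem cells, the archaeocytes. Some of the genes described here carry the names of vertebrate defence genes. In vertebrates, sensors such as IFIH1 recognise double-stranded RNA and start an interferon response, whose products include the antiviral enzyme RSAD2 (viperin) and the giant ubiquitin ligase RNF213. A name in the deposited table states similarity to a vertebrate relative, not identity, and roles given for the genes are those of the relatives.

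The 12 libraries held 11379345 to 15798197 counted read pairs and counts for 30384 to 32306 genes each. The biological coefficient of variation over the 18 libraries was 21%. Markers of choanocytes (73 genes, 70 with counts in every library) summed to 1380 to 2242 CPM, a gene's share of the library's counts on a common scale. Archaeocyte markers (6 genes, all with counts in every library) summed to 1024 to 2056 CPM, and contractile and pinacocyte genes (16, with 13 in every library) to 8976 to 14333 CPM. The spicule-forming sclerocytes could not be checked, as 0 genes were named for silicatein. Near-identical gene copies and overlapping genes are uncertain throughout, because reads that mapped to several places were not counted and strand was ignored.

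Between the 4 h exposure and recovery, the tryptamine effect moved upward in 23 genes and downward in 0. The tryptamine effect at a time is the log2 level with tryptamine minus that with DMSO at the same time. Its change is the effect after recovery minus the effect at 4 h, so a positive change means an effect that was less negative, or more positive, after recovery. Most of the 23 stood high in DMSO at 4 h and low in the other groups. The table gives 9 of them a name and 14 none. Of the 9, 8 are described: RSAD2 and IFIH1, 3 ubiquitin ligase genes named RNF213, CUL9 and synoviolin, 2 NUP98 genes of the nuclear pore and INVS.

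By edgeR's quasi-likelihood test with Benjamini-Hochberg adjustment over 24125 tested genes, the 23 positive changes made up 0.0953% of the genes and the negative ones 0%. The smallest adjusted p was 0.0223, and the smallest of a negative change was 0.0688. At an unadjusted p under 0.05 there were 1515 positive changes (6.28% of genes) and 1159 negative ones (4.8%), and 50.8% of all tested genes had a positive value. Other tests gave other counts, with 125 positive and 63 negative changes by DESeq2 and 0 of either by limma-voom, where 2597 genes had an unadjusted p under 0.05. With the replicate number as a block within each time there were 79 positive and 54 negative changes. The change carries the error of 4 groups: its median standard error was 0.39 on the log2 scale, against 0.28 for the effect at either time alone, and the median absolute change over the tested genes was 0.33. In bulk libraries, fewer cells that express a gene and less RNA per cell cannot be told apart.

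The calls depended on single libraries. The 23 positive calls became 0 without DMSO 4 h replicate 2, DMSO 4 h replicate 3, DMSO recovery replicate 2 or DMSO recovery replicate 3, fits in which 2029, 3487, 2729 and 2391 genes had an unadjusted p under 0.05. Positive calls numbered 26 without tryptamine recovery replicate 1 (18 of the 23 among them) and 29 without tryptamine recovery replicate 3 (17 of the 23). Without tryptamine 4 h replicate 2 or tryptamine recovery replicate 2 there was 1, from the 23. Without tryptamine 4 h replicate 1 or DMSO recovery replicate 1 there were 5, all from the 23. Without tryptamine 4 h replicate 3 there were 12, with 9 of the 23 among them. Without DMSO 4 h replicate 1, in contrast, 106 genes were called positive. Negative calls were 41 without tryptamine recovery replicate 1, and 4 without tryptamine recovery replicate 3, tryptamine 4 h replicate 1 or DMSO 4 h replicate 1, and at most 1 without any other library. The log2 changes of the 23 genes kept their sign in all of these fits.

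**Figure D1:**
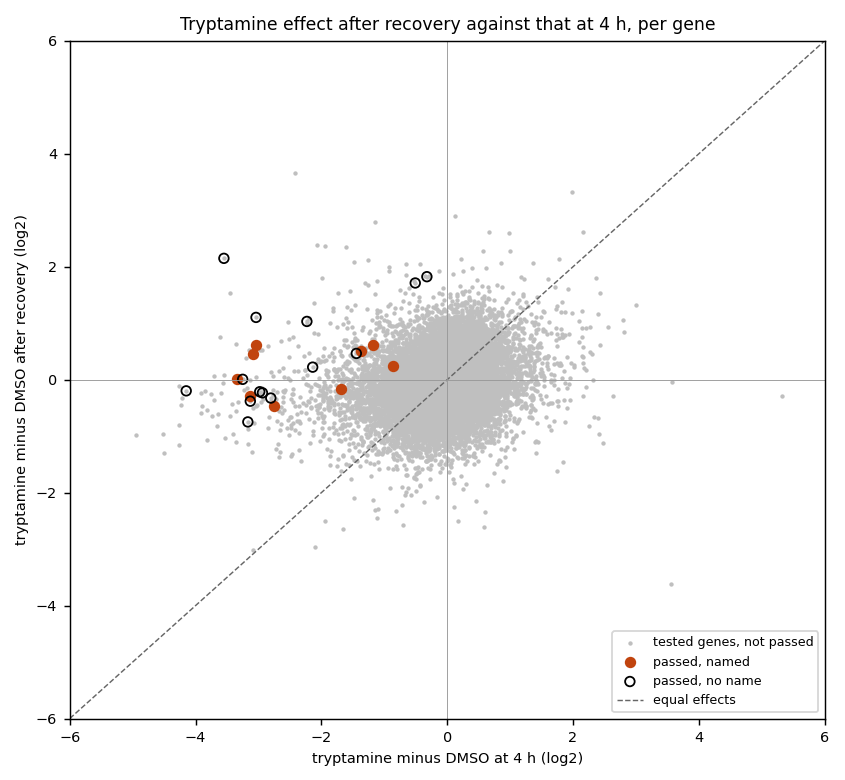
Each point is a tested gene, with the tryptamine effect at 4 h on the x axis and after recovery on the y axis (log2, tryptamine minus DMSO). The dashed line marks equal effects, and the 23 genes that passed the test of the difference all lie above it, 21 of them also with an effect that passed the 4 h test alone.

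The same 4 groups show where the change lay. Over the 23 genes the median tryptamine effect was 0.22 after recovery (range -0.75 to 2.15) and -2.94 at 4 h (range -4.15 to -0.32). The median difference of recovery from 4 h was 0.27 in tryptamine sponges and -2.29 in DMSO sponges. Taken singly, 21 of the 23 had a negative effect that passed at 4 h, where 1.27% of all tested genes had one (0.236% a positive one), and 2 had a positive effect that passed after recovery, where 1.36% had one (0.497% a negative one). Recovery stood below 4 h within DMSO sponges in 22 (4.33% of all tested genes, with 2.54% above), and above 4 h within tryptamine sponges in 2 (1.4%, with 3.45% below). These values share libraries with the test that chose the genes, so they describe the calls and do not support them. In 22 of the 23 genes each tryptamine 4 h library lay below each DMSO 4 h library, a pattern held by 7.34% of all tested genes. After recovery the tryptamine and DMSO libraries overlapped in 16 genes (76.1% of all tested genes), tryptamine lay above DMSO in 6 (13.4%) and below in 1 (the remaining tested genes). Overlap after recovery was the usual state of the tested genes and not particular to the 23.

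The 1 h libraries were not part of the contrast. In 18 of the 23 genes the 3 DMSO 4 h libraries stood above each of the 15 other libraries of the series, the 1 h libraries among them, and 1.97% of all tested genes did so. The DMSO 4 h libraries and most of those 15 belong to the contrast that chose the genes. The count therefore describes the calls and does not support them. Over these 18 genes, and relative to the mean of DMSO at 1 h, the median level was 0.667, 0.812 and 0.729-fold in the 3 tryptamine 1 h libraries and 0.967, 1.17 and 0.94-fold in the DMSO 1 h libraries. It was 0.968, 1.39 and 1.3-fold in the tryptamine 4 h libraries and 5.78, 13.4 and 10.9-fold in the DMSO 4 h libraries. After recovery it was 1.37, 1.37 and 1.15-fold with tryptamine and 1.38, 0.909 and 1.38-fold with DMSO. That DMSO at 4 h is the highest group here follows from how the 18 genes were kept, so these levels only describe them. Within DMSO at 4 h, replicate 1 was the lowest library in 17 of the 18 genes and replicate 2 the highest in 16.

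At 1 h itself, tryptamine and DMSO differed by a median of -0.22 over the 23 genes (log2, range -1.29 to 0.45), and 0 passed the edgeR test (smallest adjusted p = 0.651). At an unadjusted p under 0.05, 6 of the 23 were lower with tryptamine at 1 h and 0 were higher, where 3.43% and 3.01% of all tested genes were.

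RSAD2 c4918-g1, whose relative viperin makes a nucleotide analogue that stops viral RNA synthesis, had 2.28, 1.31 and 2.4 CPM in tryptamine recovery libraries and 1.43, 2.1 and 2.36 CPM in DMSO recovery libraries. At 4 h it had 0.673, 1.3 and 0.906 CPM with tryptamine and 6.2, 11.5 and 11.3 CPM with DMSO. The recovery groups overlapped, and at 4 h the lowest DMSO library stood well above the highest tryptamine library. The tryptamine effect was 0.02 (SE 0.33) after recovery and -3.34 (SE 0.34) at 4 h, a change of 3.35 (SE 0.48, edgeR adjusted p = 0.0223). Of these 8 genes RSAD2 kept its call most often, in 17 of 24 alternative analyses. The call was lost without DMSO recovery replicate 2 or 3 and without DMSO 4 h replicate 2 or 3, with a largest adjusted p of 0.153 over all alternatives and log2 changes of 3.14 to 3.60.

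IFIH1 c93646-g1, named for a helicase that senses double-stranded RNA, had 16.2, 14.4 and 12 CPM in tryptamine recovery libraries against 16.5, 13.1 and 18.1 CPM in DMSO recovery libraries. It had 9.57, 9.77 and 13.3 CPM with tryptamine at 4 h and 26.8, 39.6 and 39.2 CPM with DMSO at 4 h. Only at 4 h did the groups separate, and there DMSO was higher. The effect of -0.17 (SE 0.20) after recovery and -1.69 (SE 0.21) at 4 h gave a change of 1.52 (SE 0.29, edgeR adjusted p = 0.0462). Another 3 tested genes carry this name and did not pass: the change was 1.81 (SE 0.57, adjusted p = 0.266) in c95910-g1, 1.27 (SE 0.25, adjusted p = 0.0628) in c101586-g1 and -0.38 (SE 0.60, adjusted p = 0.869) in c88552-g1.

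RNF213 c94017-g1, similar to a ubiquitin ligase that coats intracellular bacteria and viruses, had 0.943, 0.657 and 0.687 CPM after tryptamine and recovery and 0.714, 0.566 and 0.413 CPM after DMSO and recovery. At 4 h the tryptamine libraries had 1.05, 0.865 and 1.32 CPM and the DMSO libraries 4.13, 12.1 and 11.5 CPM. The recovery groups overlapped, whereas the DMSO 4 h libraries were all far above the rest, with replicate 1 the lowest of them. The effect was 0.45 (SE 0.53) after recovery and -3.09 (SE 0.41) at 4 h, a change of 3.54 (SE 0.67, edgeR adjusted p = 0.0462). Leaving out any 1 library other than DMSO 4 h replicate 1 ended this call (adjusted p up to 0.381 over the alternatives).

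The name RNF213 was carried by 33 genes of the table, of which 21 were tested. Besides the called gene, 0 passed, while 8 of the 21, the called gene included, had a positive change at an unadjusted p under 0.05 (6.28% of all tested genes) and 19 had a positive value (50.8% of all tested genes). Their median change was 0.71, from -0.22 to 3.59, with a median effect of 0.16 after recovery and -0.48 at 4 h. RNF213 c105143-g1 had the highest value (3.59, SE 0.71, adjusted p = 0.0614), with 0.897 ± 0.27 CPM after tryptamine recovery, 0.676 ± 0.135 CPM after DMSO recovery, 1.25 ± 0.491 CPM in tryptamine at 4 h and 11.5 ± 5.58 CPM in DMSO at 4 h (SD, n = 3). The abundant copies RNF213 c102358-g1 and c103788-g2 had smaller changes, of 0.43 (SE 0.31) and -0.22 (SE 0.25), and did not pass. Reads shared between copies were not counted, so levels within this family are uncertain.

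**Figure D2:**
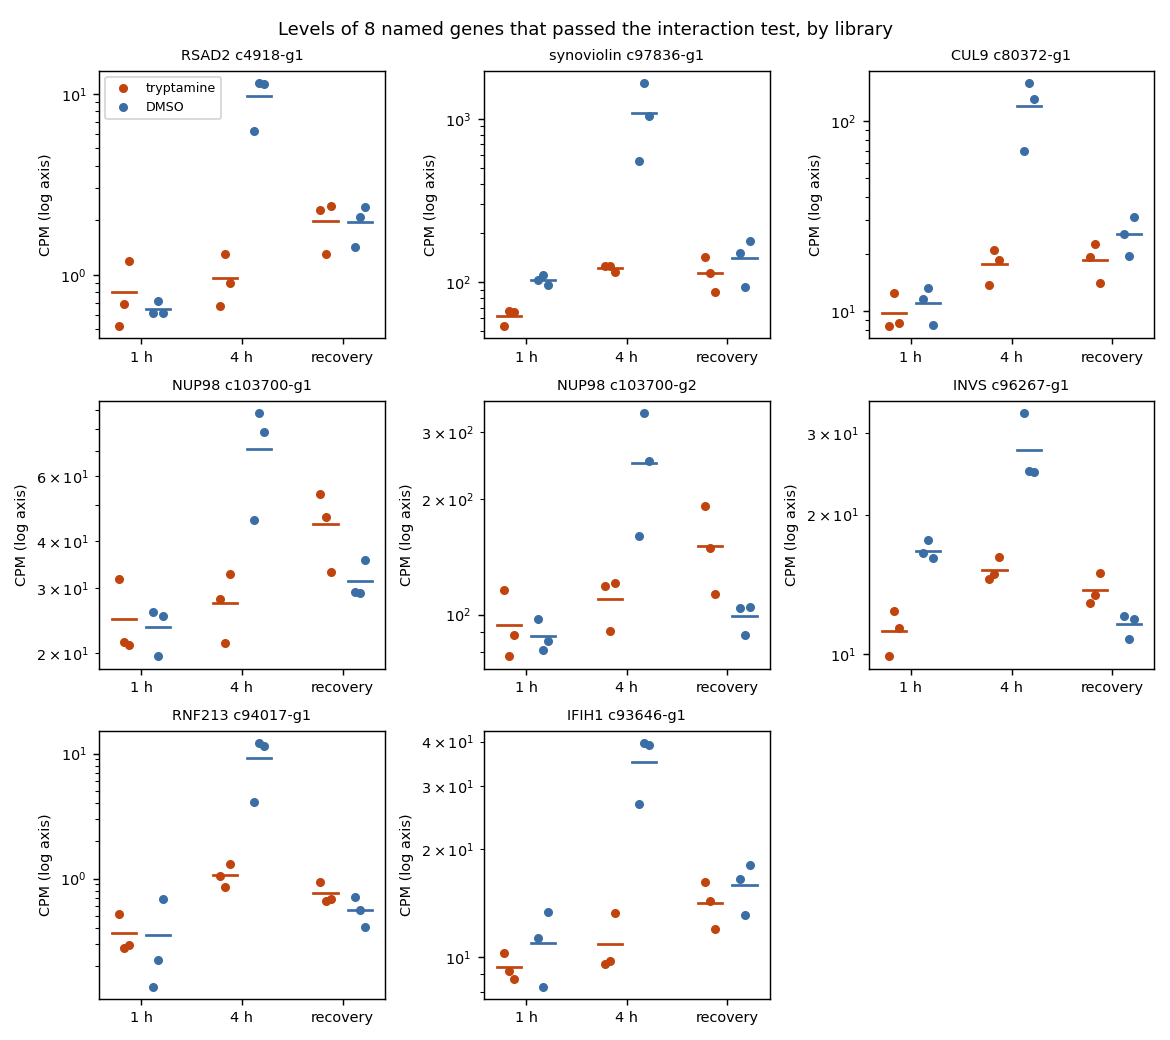
Levels in CPM on a log axis of 8 named genes that passed the test of the change, with a point per library, tryptamine left of DMSO at 1 h, at 4 h and after recovery, and a line at each group mean. In each panel the DMSO 4 h mean is the highest, from 9.24 CPM for RNF213 c94017-g1 to 1083 CPM for synoviolin c97836-g1.

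Synoviolin c97836-g1 is named for a ubiquitin ligase that removes misfolded proteins from the endoplasmic reticulum, and it was the most abundant of the 8. It had 142, 114 and 87 CPM in tryptamine recovery libraries, against 150, 93.2 and 178 CPM in DMSO recovery libraries. At 4 h it had 125, 126 and 116 CPM with tryptamine and 551, 1662 and 1035 CPM with DMSO. The 3 tryptamine 4 h libraries were tightly grouped within the range of the recovery libraries, and the DMSO 4 h libraries were spread widely above it. With an effect of -0.30 (SE 0.30) after recovery and -3.14 (SE 0.32) at 4 h, the change was 2.84 (SE 0.43, edgeR adjusted p = 0.0238). The gene that carries the symbol of the human ligase, SYVN1 c102386-g2, did not pass (0.31, SE 0.17, adjusted p = 0.521), with 219 and 186 CPM on average after tryptamine and DMSO recovery and 171 and 180 CPM with tryptamine and DMSO at 4 h.

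CUL9 c80372-g1, similar to a cullin, the scaffold of a class of ubiquitin ligases, had 19.2, 22.5 and 14.1 CPM in tryptamine recovery libraries and 25.6, 19.6 and 31.4 CPM in DMSO recovery libraries. With tryptamine at 4 h it had 13.8, 21.1 and 18.5 CPM, and with DMSO at 4 h 69.7, 159 and 131 CPM. Again the groups overlapped after recovery and separated at 4 h. The change was 2.29 (SE 0.40, edgeR adjusted p = 0.0448). The other tested gene of this name, CUL9 c101895-g2, was more abundant and did not pass (-0.15, SE 0.23, adjusted p = 0.859).

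NUP98 was the name of 2 genes of the same assembled component, c103700-g1 and c103700-g2, related to a mobile nucleoporin that feeds RNA through the nuclear pore. NUP98 c103700-g2 had 192, 149 and 113 CPM in tryptamine recovery libraries and 104, 88.6 and 105 CPM in DMSO recovery libraries, and at 4 h 119, 90.5 and 121 CPM with tryptamine and 160, 336 and 252 CPM with DMSO. Here the groups did not overlap at either time, and they stood in opposite order: tryptamine was above DMSO after recovery and below it at 4 h. The effect after recovery was 0.61 (SE 0.23, edgeR adjusted p = 0.169) and did not pass on its own, the effect at 4 h was -1.18 (SE 0.23, adjusted p = 0.00829), and their difference was 1.79 (SE 0.32, adjusted p = 0.0448). NUP98 c103700-g1 had 53.6, 46.6 and 33 CPM after tryptamine and 29.3, 29 and 35.6 CPM after DMSO and recovery, so that these groups overlapped. With 28, 21.3 and 32.7 CPM in tryptamine and 45.7, 88.6 and 78.6 CPM in DMSO at 4 h, its change was 1.88 (SE 0.34, adjusted p = 0.0448). As parts of one component the genes may share a transcript and are not independent.

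INVS c96267-g1, named for inversin, an ankyrin-repeat protein of cilia and Wnt signalling, had the smallest change that passed. It had 12.9, 13.4 and 15 CPM after tryptamine recovery and 12.1, 10.8 and 11.9 CPM after DMSO recovery, against 14.5, 14.9 and 16.2 CPM in tryptamine and 33.1, 24.8 and 24.7 CPM in DMSO at 4 h. Both times separated the groups, with tryptamine slightly higher after recovery and lower at 4 h, and unlike the other named genes DMSO 4 h replicate 1 was the highest of its group. At 1 h, tryptamine libraries had 9.9, 12.4 and 11.4 CPM and DMSO libraries 16.5, 17.6 and 16.1 CPM. The change was 1.10 (SE 0.21, edgeR adjusted p = 0.0448), from effects of 0.25 (SE 0.15) and -0.86 (SE 0.14). INVS c97788-g1, the other tested gene of this name, had a change of -0.03 (SE 0.20, adjusted p = 0.972).

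Leaving out single libraries treated these 8 named genes unequally. None passed without DMSO recovery replicate 2 (adjusted p of 0.105 to 0.133), DMSO recovery replicate 3 (0.0513 to 0.121), DMSO 4 h replicate 2 (0.0594 to 0.194) or DMSO 4 h replicate 3 (0.0705 to 0.0895). RSAD2 alone of the 8 passed without tryptamine recovery replicate 2 (adjusted p of 0.0128 to 0.102 over the 8 genes), tryptamine 4 h replicate 2 (0.0338 to 0.15), DMSO recovery replicate 1 (0.0317 to 0.135) or tryptamine 4 h replicate 1 (0.0299 to 0.0977). Without tryptamine 4 h replicate 3, 3 passed (0.0315 to 0.0571), and without tryptamine recovery replicate 1 (0.0168 to 0.0657) or replicate 3 (0.0163 to 0.0688), 6 passed. All 8 passed without DMSO 4 h replicate 1 (0.000306 to 0.0389).

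The other 14 genes that passed carry no name in the table, and 2 of them had under 20 counts on average over the 12 libraries. Their sequences and likely products were not analysed here. The 23 called genes had a median length of 456 bases in the deposited table, against 619 bases over all tested genes, and 39.1% of them were named, against 37.9% of the tested genes.

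The unnamed gene c52242-g1 had the most positive change of those with at least 20 counts. It had 1.57, 0.876 and 1.37 CPM in tryptamine recovery libraries and 1.51, 1.05 and 1.77 CPM in DMSO recovery libraries. At 4 h it had 0.897, 1.82 and 2.22 CPM with tryptamine and 17, 40.7 and 29.7 CPM with DMSO. The effect of -4.15 (SE 0.41) at 4 h was the lowest of the 23, and with -0.20 (SE 0.46) after recovery the change was 3.95 (SE 0.62, edgeR adjusted p = 0.0223). Next came c5647-g1, with 1.96, 2.99 and 2.06 CPM after tryptamine recovery, 1.59, 1.13 and 0.767 CPM after DMSO recovery, 2.24, 1.56 and 1.73 CPM in tryptamine at 4 h and 4.94, 12 and 9.25 CPM in DMSO at 4 h. Tryptamine lay above DMSO after recovery and below it at 4 h in each library, and the change was 3.26 (SE 0.51, adjusted p = 0.0223).

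Another pattern was held by 2 of the unnamed genes, singled out after their values were seen because they passed after recovery and not at 4 h. c39895-g1 had 3.93, 4.38 and 4.33 CPM in tryptamine recovery libraries and 1.43, 1.46 and 1 CPM in DMSO recovery libraries, and at 4 h 1.94, 1.04 and 1.57 CPM with tryptamine and 2.43, 1.98 and 2.12 CPM with DMSO. The tryptamine recovery libraries were the highest of these 12, and the effect was 1.71 (SE 0.29, edgeR adjusted p = 0.0201) after recovery and -0.51 (SE 0.30, adjusted p = 0.556) at 4 h. Its change was 2.22 (SE 0.41, adjusted p = 0.0448), and within tryptamine sponges recovery stood above 4 h by 1.46 (adjusted p = 0.00904).

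In c88058-g2 the recovery libraries had 2.12, 1.83 and 2.68 CPM with tryptamine and 0.555, 0.647 and 0.649 CPM with DMSO, and the 4 h libraries 1.94, 1.12 and 1.65 CPM with tryptamine and 1.8, 2.17 and 1.98 CPM with DMSO. Here the DMSO recovery libraries stood apart by being low. The effect was 1.82 (SE 0.29, edgeR adjusted p = 0.0174) after recovery and -0.32 (SE 0.27, adjusted p = 0.718) at 4 h, a change of 2.15 (SE 0.40, adjusted p = 0.0448). Both genes kept the call in 2 of the 12 fits that left out a library, with largest adjusted p-values of 0.29 for c39895-g1 and 0.365 for c88058-g2 over the alternatives.

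Just outside the threshold on the positive side lay more genes that were high in DMSO at 4 h. TRIM2 c87469-g1, named for a ubiquitin ligase of the tripartite motif family, had 35.4, 25.3 and 12.6 CPM after tryptamine recovery, 34.8, 18.4 and 37.9 CPM after DMSO recovery, 17.9, 28.4 and 19.7 CPM in tryptamine at 4 h and 181, 658 and 382 CPM in DMSO at 4 h. Its change of 3.89 (SE 0.67, edgeR adjusted p = 0.0536) missed the threshold. Of 12 tested genes named TRIM2, 4 had a positive change and 8 a negative one, with a median of -0.20, and c87469-g1 was the 1 with a positive value at an unadjusted p under 0.05. TRIM2 c112860-g1 had the most negative value (-1.09, SE 0.38, adjusted p = 0.296), from 1.9 and 1.77 CPM on average after tryptamine and DMSO recovery and 4.58 and 2.03 CPM with tryptamine and DMSO at 4 h.

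Chitin synthases polymerise the polysaccharide chitin, a component of sponge skeletons. All 15 genes of this name were tested and 0 passed, with 8 positive and 1 negative change at an unadjusted p under 0.05 (6.28% and 4.8% of all tested genes) and a median change of 0.77. The smallest p belonged to chitin synthase c104626-g6, with 8.17, 5.4 and 7.97 CPM after tryptamine recovery and 5.24, 6.47 and 7.2 CPM after DMSO recovery, against 7.25, 6.66 and 14.7 CPM in tryptamine and 24.3, 35.7 and 35.7 CPM in DMSO at 4 h (1.92, SE 0.39, edgeR adjusted p = 0.0688). The opposite extreme was chitin synthase c104267-g3 at -1.50 (SE 0.60, adjusted p = 0.361).

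**Figure D3:**
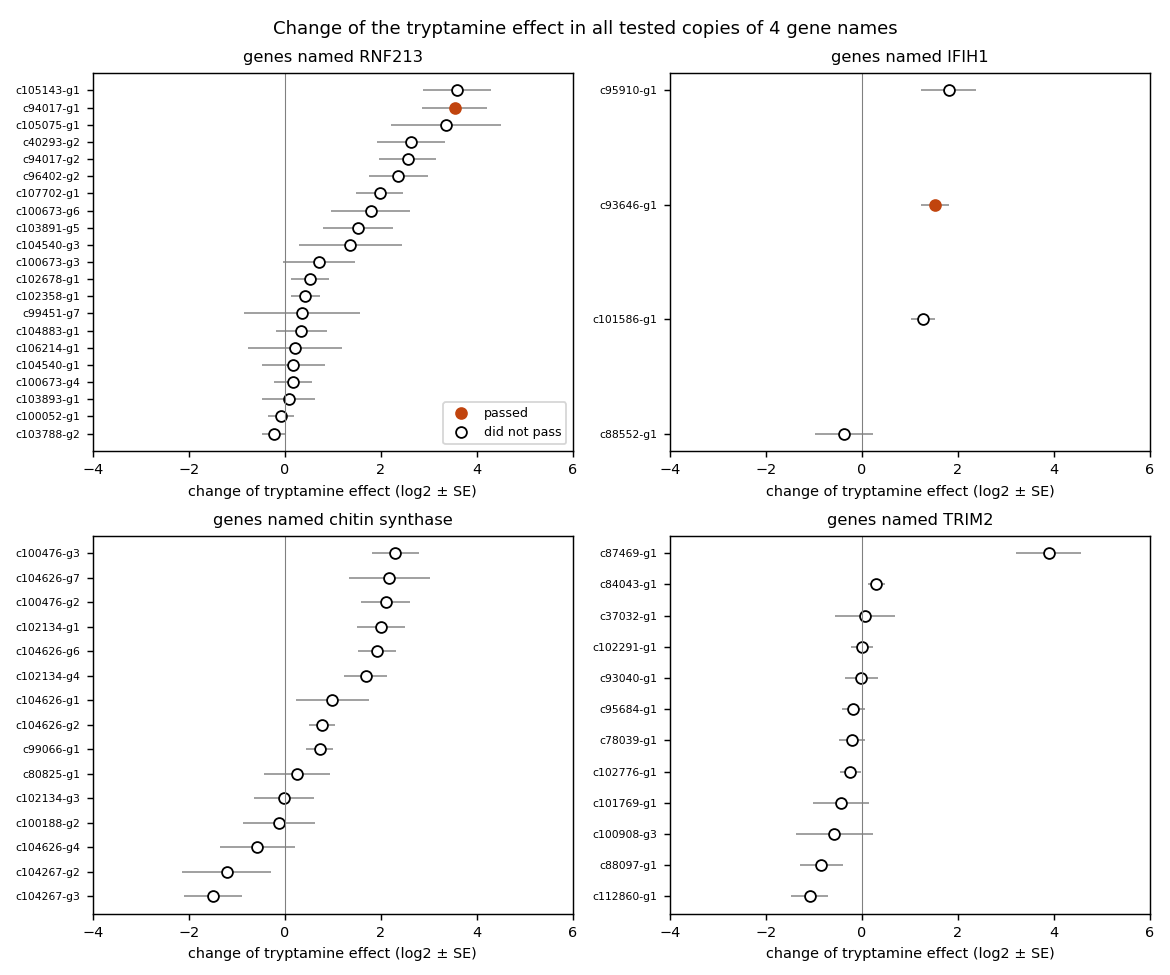
Change of the tryptamine effect (log2, x axis, bars are SE) in each tested gene named RNF213, IFIH1, chitin synthase or TRIM2, listed on the y axis. Filled points passed the test. The 21 RNF213 genes run from -0.22 to 3.59 and the 12 TRIM2 genes from -1.09 to 3.89, with a gap below the highest TRIM2 gene.

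ASMT,ASMTL c100382-g1, named for the methyltransferase that completes melatonin synthesis, reached its change by another route. It had 38.4, 51 and 45.1 CPM in tryptamine recovery libraries and 21.2, 29.4 and 21.7 CPM in DMSO recovery libraries, and at 4 h 47, 41.2 and 42.4 CPM with tryptamine and 55.2, 61.2 and 47.1 CPM with DMSO. Tryptamine libraries lay well above DMSO libraries after recovery, and at 4 h the groups lay next to each other, with 47 CPM in the highest tryptamine library and 47.1 CPM in the lowest DMSO library. The change was 1.22 (SE 0.26, edgeR adjusted p = 0.0805), and the effects were 0.90 (SE 0.19) after recovery and -0.32 (SE 0.18) at 4 h. Amine oxidase c101209-g1, whose relatives break amines down, had 8.01, 10.7 and 7.7 CPM after tryptamine recovery and 7.14, 9.06 and 14.5 CPM after DMSO recovery, against 7.55, 9.34 and 8.48 CPM in tryptamine and 25.9, 29.2 and 21.7 CPM in DMSO at 4 h. Its change of 1.38 (SE 0.33, adjusted p = 0.117) did not pass.

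In the edgeR fit without a block no gene had a negative change that passed, and 2 named genes of small p are given as genes that did not. CALML3 c98735-g1, a calmodulin-like calcium sensor, had 25.6, 18.6 and 20.5 CPM after tryptamine recovery and 36, 32.8 and 31.7 CPM after DMSO recovery, against 26.4, 37.6 and 26 CPM in tryptamine and 22, 20.6 and 22.5 CPM in DMSO at 4 h. Neither time showed an overlap: tryptamine was below DMSO after recovery and above it at 4 h (-1.10, SE 0.24, edgeR adjusted p = 0.0957). In RNF11 c98693-g1, a RING finger adaptor of ubiquitin ligases, the recovery libraries overlapped at 46.8, 41.8 and 38.3 CPM with tryptamine and 47.5, 39.7 and 48.4 CPM with DMSO. The 4 h libraries had 59.9, 136 and 86.7 CPM with tryptamine and 41.3, 43.1 and 44.4 CPM with DMSO, so its change of -1.23 (SE 0.28, adjusted p = 0.0957) lay in high and scattered tryptamine libraries at 4 h.

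Among 24 lists of named genes, those for RNA sensing and for ubiquitin ligases held 2 called genes each. The lists gather genes by name, and no test was run on a list. They were chosen with earlier results of these data known. Which lists hold called genes therefore describes the calls and does not support them. Over all tested genes the median change was 0.008, 50.8% of values were positive, 0.0953% passed, and 6.28% were positive and 4.8% negative at an unadjusted p under 0.05. Of 45 tested genes for RNA sensing and interferon-type effectors, 2 passed, RSAD2 and IFIH1, with 31 positive values and a median change of 0.22. Over the alternative analyses that median ranged from 0.04, without both 4 h libraries of number 2, to 0.35. By library, the list lay at 0.08, -0.32 and 0.04 in tryptamine at 4 h, so replicate 2 was the low one. Of 124 genes for RNF213, TRIM and related ubiquitin ligases, 2 passed, CUL9 and RNF213, but 63 values were positive and 61 negative, and the median was 0.003. The called synoviolin gene is not in that list, which was matched by symbol, as it carries a full name and no symbol. The 72 genes for Toll, NF-kappa-B and cell death had 39 positive values and a median of 0.05. CASP2,CASP1 c100053-g2, related to proteases of cell death and inflammation, did not pass (1.12, SE 0.25, edgeR adjusted p = 0.0957), with 29.5 and 27.9 CPM on average after tryptamine and DMSO recovery and 32.7 and 67.3 CPM with tryptamine and DMSO at 4 h. TRAF2 c95451-g1, an adaptor of tumour necrosis factor receptors, had a change of 1.10 (SE 0.32, adjusted p = 0.218).

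The lists with the highest medians were those of ribosome production and protein synthesis, in which 0 genes passed. Of 83 genes for ribosome assembly and RNA polymerase I, which makes ribosomal RNA, 75 had a positive change, 56 of them at an unadjusted p under 0.05, where 6.28% of all tested genes had one. The median change was 0.72, with a median effect of 0.78 after recovery and 0.07 at 4 h. In contrast with the called genes, the larger median effect in this list was that after recovery. The median difference of recovery from 4 h was 0.258 in tryptamine sponges and -0.406 in DMSO sponges. Over the alternative analyses the median ranged from 0.47, without both 4 h libraries of number 2, to 0.85.

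By library, the median log2 level of the ribosome assembly list relative to each gene's mean over the 18 libraries was 0.32, 0.39 and 0.33 after tryptamine recovery and -0.52, -0.27 and -0.39 after DMSO recovery. At 4 h it was 0.19, -0.09 and 0.10 with tryptamine and 0.02, 0.28 and -0.28 with DMSO. The groups were far apart after recovery and overlapped at 4 h, where the DMSO libraries covered a wider range. NOP14 c100426-g1, a factor of the small ribosomal subunit chosen here for its small p, shows this gene by gene, with 56.5, 58.5 and 59.8 CPM in tryptamine recovery libraries, 25.6, 32.8 and 28 CPM in DMSO recovery libraries, 43.6, 31 and 43.9 CPM in tryptamine and 40.5, 52 and 33.7 CPM in DMSO at 4 h. Its effect was 1.02 (SE 0.20) after recovery and -0.09 (SE 0.20) at 4 h, and the change of 1.11 (SE 0.29, edgeR adjusted p = 0.149) did not pass. DDX21,DDX50 c98220-g1, RNA helicases of the nucleolus, had 31.4, 40.4 and 33 CPM after tryptamine recovery and 18.6, 20.6 and 20 CPM after DMSO recovery, with 26, 24.2 and 26 CPM in tryptamine and 29.1, 35.5 and 22 CPM in DMSO at 4 h (1.00, SE 0.25, adjusted p = 0.137).

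**Figure D4:**
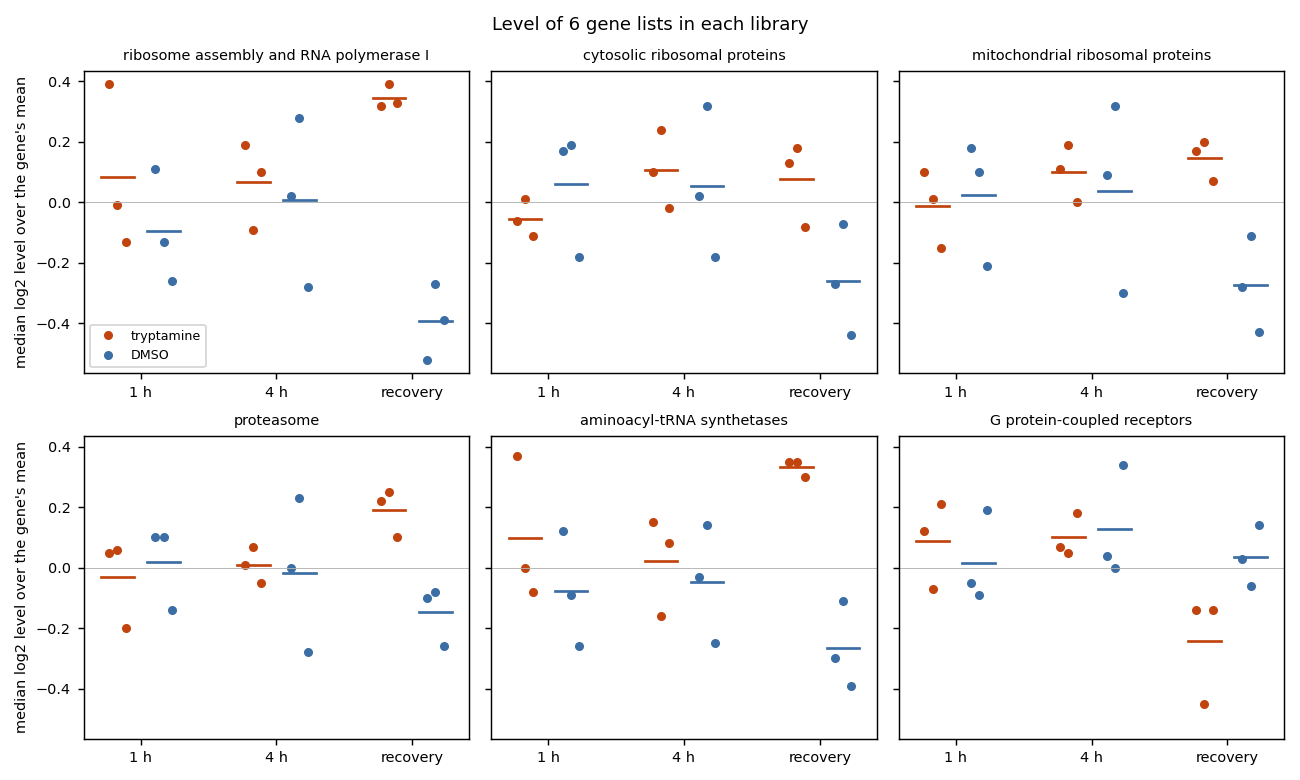
Median log2 level of each of 6 gene lists relative to each gene's mean over the 18 libraries (y axis), with a point per library, tryptamine left of DMSO at 1 h, at 4 h and after recovery, and a line at each group mean. In the ribosome assembly panel the recovery libraries lie at 0.32 to 0.39 with tryptamine and -0.52 to -0.27 with DMSO, and the groups overlap at 1 h and 4 h.

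Other lists of growth and protein quality lay on the same side with smaller medians. Aminoacyl-tRNA synthetases, which charge tRNAs with amino acids, had a median change of 0.48, with 33 of 37 values positive and 17 at an unadjusted p under 0.05. WARS c103838-g4, the tryptophan enzyme, differed from the rest of that list: it had a change of 1.87 (SE 0.50, edgeR adjusted p = 0.184) and an effect of -2.29 at 4 h, with 9.69 and 12.9 CPM on average after tryptamine and DMSO recovery and 8.23 and 40.4 CPM with tryptamine and DMSO at 4 h. Mitochondrial ribosomal proteins had a median of 0.40, with 41 of 46 positive and 12 at an unadjusted p under 0.05, and cytosolic ribosomal proteins one of 0.28, with 78 of 85 positive and 4 at that level. Proteasome genes had a median of 0.36, and all 39 were positive, 12 of them at an unadjusted p under 0.05. The median effect in each of these lists was 0.31 or more after recovery and at most 0.09 at 4 h. Within tryptamine sponges, the median difference of recovery from 4 h was 0.333 for synthetases, 0.068 for mitochondrial ribosomal proteins, -0.043 for cytosolic ones and 0.215 for the proteasome. Within DMSO sponges it was -0.18, -0.318, -0.334 and -0.154 in the same order. Members of a list share the same libraries and are not independent. The proteasome list lay at -0.00, 0.23 and -0.28 in the DMSO 4 h libraries and at 0.01, 0.07 and -0.05 in tryptamine at 4 h. Without DMSO 4 h replicate 2 the median change fell to 0.21 for the proteasome, 0.24 for mitochondrial ribosomal proteins and 0.12 for cytosolic ones.

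Heat shock proteins and chaperones had a median change of 0.22, with 54 of 70 values positive and 22 at an unadjusted p under 0.05. HSPD1 c96953-g1, the mitochondrial chaperonin, had 673, 603 and 728 CPM in tryptamine recovery libraries and 294, 372 and 303 CPM in DMSO recovery libraries, and at 4 h 655, 477 and 565 CPM with tryptamine and 564, 757 and 438 CPM with DMSO (1.10, SE 0.32, edgeR adjusted p = 0.215). DMSO recovery was the low group among the 4. In the endoplasmic reticulum list the median was 0.27, with 25 of 29 positive. Its chaperone HSPA5 c39783-g1 had 938, 2990 and 1435 CPM after tryptamine recovery, so 1 library carried most of its mean, 854, 981 and 882 CPM after DMSO recovery, 949, 867 and 985 CPM in tryptamine and 1881, 1284 and 1080 CPM in DMSO at 4 h (1.58, SE 0.47, adjusted p = 0.248). Cell cycle and DNA replication genes had a median of 0.35, with 61 of 74 positive.

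Signalling and contractile lists had negative medians, with 0 genes passing in any of them. G protein-coupled receptors had a median change of -0.28, with 49 of 68 values negative but only 3 negative and 2 positive ones at an unadjusted p under 0.05. By library, the receptor list lay at -0.14, -0.45 and -0.14 after tryptamine recovery and 0.03, -0.06 and 0.14 after DMSO recovery, against 0.07, 0.05 and 0.18 in tryptamine and 0.04, 0.00 and 0.34 in DMSO at 4 h. Tryptamine recovery was the low group, and its replicate 2 the lowest library. The nitric oxide and cyclic GMP list had a median of -0.27, with 11 of 16 negative. Guanylate cyclase c101017-g1, which makes cyclic GMP, had 42.3, 22.5 and 36.3 CPM after tryptamine recovery and 65.8, 51.9 and 52.2 CPM after DMSO recovery, with 51.4, 34.9 and 43.2 CPM in tryptamine and 36.6, 25.1 and 40.8 CPM in DMSO at 4 h (-1.08, SE 0.30, edgeR adjusted p = 0.197).

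Actomyosin genes had a median change of -0.16, with 35 of 48 values negative. Of these, 3 were so at an unadjusted p under 0.05, where 4.8% of all tested genes had a negative change. By library, the actomyosin list lay at -0.32, -0.42 and 0.03 after tryptamine recovery and 0.10, -0.06 and -0.10 after DMSO recovery, so these groups overlapped. Calcium signalling genes and TRP channels had a median of -0.14, with 22 of 31 negative. Immediate early genes and MAP kinase feedback genes had a median of -0.20, with 18 of 28 negative and 6 of those at an unadjusted p under 0.05. DUSP6 c96889-g1, a phosphatase that switches off MAP kinases, was at 318 and 374 CPM on average after tryptamine and DMSO recovery and at 547 and 346 CPM with tryptamine and DMSO at 4 h (-0.89, SE 0.29, adjusted p = 0.266). Archaeocyte genes had a median of 0.33, with 23 of 27 positive. Only 2 of them were so at an unadjusted p under 0.05, where 6.28% of all tested genes had a positive change. Their median effect was 0.28 at 1 h, 0.14 at 4 h and 0.33 after recovery. The median change fell to 0.08 without both 4 h libraries of number 2. The choanocyte flagellum list had a median change of -0.09, with 84 of 142 negative. The choanocyte list takes every symbol that begins with TTC or SPAG, so not all of its members need be flagellar. Whether shares of cell types moved with the other lists was not tested.

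**Figure D5:**
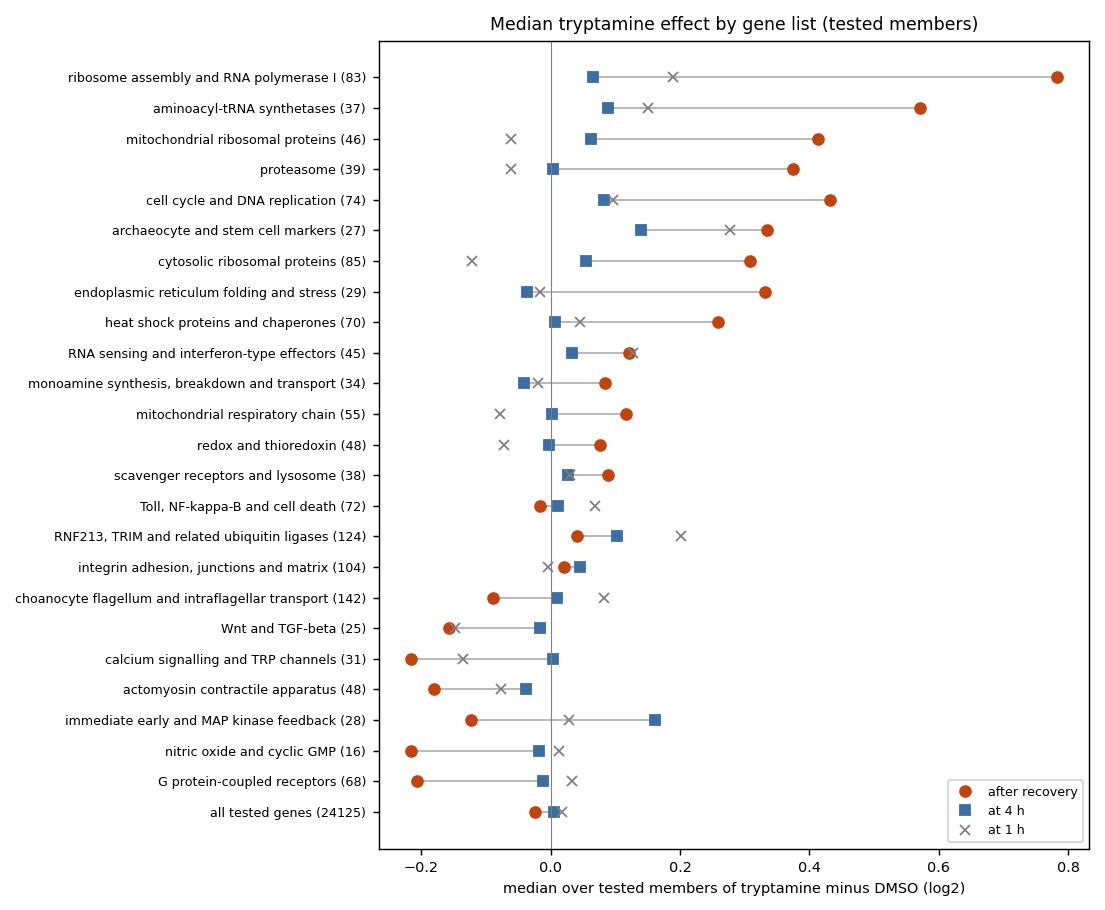
Median tryptamine effect (log2, tryptamine minus DMSO, x axis) over the tested members of each list (y axis, number of members in parentheses) after recovery, at 4 h and at 1 h. Lists at the top, such as ribosome assembly (0.78 after recovery, 0.07 at 4 h), have the larger effect after recovery, and the medians at 4 h lie between -0.04 and 0.16.

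The remaining lists had medians between -0.11 and 0.14. The monoamine list of synthesis, breakdown and transport had a median of 0.14, with 21 of 34 values positive, and at an unadjusted p under 0.05 it held 8 positive and 2 negative changes, 29.4% of its members against 11.1% of all tested genes. That list takes in whole families of solute carriers and the tryptophan enzyme WARS. WARS c103838-g4 is thus counted both here and among the synthetases, and not every member need act on monoamines. The median was 0.12 for the mitochondrial respiratory chain (37 of 55 positive, 2 positive and 0 negative at that level), 0.11 for redox and thioredoxin (29 of 48 positive, 4 and 3) and 0.09 for scavenger receptors and lysosome (22 of 38 positive, 0 and 1). For Wnt and TGF-beta it was -0.11 (17 of 25 negative, 1 positive and 5 negative at that level) and for integrin adhesion, junctions and matrix -0.01 (54 of 104 negative, 5 and 5).

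Across the 24125 tested genes, the effect after recovery and the effect at 4 h, which share no library, had a Pearson correlation of 0.21 and a Spearman correlation of 0.23. This is a description across genes, which are not independent replicates and which share the scaling of the same libraries.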

How the data were processed

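Whole-body polyA RNA was sequenced from 18 libraries in 6 groups of 3, and the samples were grouped by their titles. The authors deposited a raw count table of read pairs, from featureCounts 2.1.1 per the file headers, which also say that both ends had to map, chimeric pairs and multi-mapping reads were left out and strand was ignored. The submitters' processing notes name STAR as aligner (its version: not given in the sources used here). Of 39562 genes of an assembled transcriptome, 4925 had no count and 9537 had a usable name, and no genome or sequence was used here.

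From these counts, filterByExpr by group kept 24125 genes, 9151 of them named. With TMM scaling (factors 0.854 to 1.09), the 18 libraries were fitted in edgeR 4.0.16 (R 4.3.3) with a quasi-likelihood model of group means, with dispersions estimated robustly (12 residual degrees of freedom). The test of the change of the tryptamine effect was two-sided, its p-values were adjusted by Benjamini and Hochberg's method across all tested genes, and the threshold was 0.05. Levels are TMM-scaled CPM, and the marker sums are unscaled CPM. A level of 3 counts equals 0.19 to 0.264 CPM in the 12 libraries, which covers counting error only.

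Genes were named when they passed, had a mean of at least 20 counts over the 12 libraries and a usable name: the 12 most positive and 12 most negative, at most 3 of one name, and the 2 of smallest p in each list. With fewer than 3 in a direction, the 3 of smallest p were given as not passed. The 2 most positive unnamed genes were added. Genes just outside the threshold, list examples and further copies of a name were taken by p or name after their values were seen. Some genes that this rule names are not reported here. The members and the 24 lists were chosen with earlier results of these data known.

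Alternatives were DESeq2 1.42.0, limma-voom (limma 3.58.1), median-of-ratios scaling, no filter, a filter at 50 counts, non-robust dispersions, the 4 compared groups alone, 2 forms of replicate block, removal of a gene length trend, a test against a 1.5-fold difference and leaving out each of 12 libraries. Leaving out both 4 h libraries of number 2 was chosen after seeing the data. Replicate counts within groups differed by a chi-square of 9.42 to 56.8 per degree of freedom, and so 0 pairs looked like a repeated deposit of the same library. Simulated data had 200 genes raised in DMSO at 4 h alone (23649 genes tested for the change). Recovered were 14% of genes raised 2-fold, 86% of those raised 4-fold and 100% of those raised 8-fold or 16-fold. Of 158 called genes, 8 were unchanged ones. The raised genes were drawn from those with a mean of at least 20 counts over the 18 libraries. Their counts were drawn with the dispersions that edgeR estimated, so the shares hold for that setting and not for sparser genes.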

Additional observations from a re-analysis of the deposited data

Results flagged for a closer look

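In 12 genes described above, the tryptamine effect differed between recovery and 4 h by the test of that difference, which is what marked them for a closer look. The log2 changes were 3.35 for RSAD2, 2.84 for synoviolin, 2.29 for CUL9, 1.88 and 1.79 for the 2 NUP98 genes, 1.10 for INVS, 3.54 for RNF213 c94017-g1 and 1.52 for IFIH1 c93646-g1. Unnamed genes had 3.95 (c52242-g1), 3.26 (c5647-g1), 2.22 (c39895-g1) and 2.15 (c88058-g2). In all but the last 2 the effect at 4 h passed on its own and the effect after recovery did not. Single libraries were not tested as outlying within their groups of 3.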

How the results depend on the processing

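The 23 positive and 0 negative calls became 21 and 0 with median-of-ratios scaling, 22 and 0 with the gene length trend removed, 30 and 0 with non-robust dispersions, 21 and 2 with no filter, 13 and 0 with the stricter filter, 8 and 0 with the compared groups alone, 125 and 63 with DESeq2, and 0 and 0 with limma-voom (2597 genes at an unadjusted p under 0.05) and in the test against a 1.5-fold difference (921). Without both 4 h libraries of number 2 they were 0 and 0 (1572). Of the 23 genes, 19 were among the calls with no filter and 12 with the stricter filter. With the compared groups alone 5 of the 23 were called, and with DESeq2 22. Leaving out single libraries gave 0 to 106 positive and 0 to 41 negative calls. The causes were not tested. No gene named by the rule changed sign under any alternative. Of the lists, the ubiquitin ligase median changed sign in 19 of 24 alternatives, the integrin median in 5, and the lysosome, choanocyte and respiratory chain medians in 1 each.

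Deviations from the group means correlated between libraries of the same number by 0.115 to 0.191 at 4 h and 0.0852 to 0.287 after recovery, and by -0.161 to 0.276 between times. A limit of 0.1 was passed by all 3 pairs at 4 h but not by all after recovery or between times, and the block was therefore kept as an alternative. With the replicate number as a block there were 33 positive and 6 negative calls (19 of the 23 among them), and with a block within each time 79 and 54 (18 of the 23). In the simulation, 14% of 2-fold changes were recovered among genes with a mean of at least 20 counts. The share by expression level was not tested. The simulated shares do not measure how stable the calls in these libraries were.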
